A study of Homo sapiens with 4 samples.

Results

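The miR-26 family was followed through 4 small RNA libraries from RD cells, a human cell line from an embryonal rhabdomyosarcoma, which is a soft tissue tumour that expresses muscle genes. Its members were taken by name, as the rows hsa-miR-26a-5p, hsa-miR-26b-5p, hsa-miR-26a-2-3p and hsa-miR-26b-3p (written here without the species prefix), which are 4 of the 2656 mature miRNAs counted. The EVEN and ODD libraries are native pull-downs of untreated lysate with separate sets of biotinylated antisense probes against exon 2 of HIPK3, the exon that forms the circular RNA circHIPK3. The LacZ library is the control pull-down, with probes against the bacterial LacZ mRNA, and the input is the lysate before capture. There was 1 library per group from 1 biological replicate of 1 cell line, so each difference is between libraries and has no replicate check. Exon 2 is also part of linear HIPK3 RNA, and the recovery of the circular RNA was not analysed here. Some skeletal muscle miRNAs, which mark this cell type, were abundant in the input. miR-206 was at 42097 and miR-1-3p at 13995 CPM, reads scaled to one common library total of miRNA reads. The other muscle miRNAs listed below ranged there from 5012 CPM for miR-133a-3p down to 11.4 CPM for miR-208b-3p.

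A miRNA hairpin is cut into a duplex of a 5p and a 3p arm. The arm that is kept guides an Argonaute protein to mRNAs that pair with its seed, bases 2 to 8 from the 5′ end, and the other arm is mostly degraded. In miR-26 the 5p arm is the usual guide. The family sits in introns of CTDSP genes, which encode small phosphatases that act on RNA polymerase II and restrain neuronal genes. miR-26a is known in muscle for repressing EZH2, a histone methyltransferase that holds muscle genes silent, as myoblasts differentiate. EZH2 itself was not measured here.

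The mature sequences, from RefSeq on GRCh38.p14, are shown because the comparison of close family members turns on them; capitals mark the seed. All 4 members matched the RefSeq table by name, as did the remaining 3p arm and the further miRNAs with the same seed.
miR-26a-5p: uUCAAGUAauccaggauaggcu
miR-26b-5p: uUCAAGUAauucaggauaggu
miR-1297: uUCAAGUAauucaggug
miR-4465: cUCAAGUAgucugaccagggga
miR-26a-2-3p: cCUAUUCUugauuacuuguuuc
miR-26a-1-3p: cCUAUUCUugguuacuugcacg
miR-26b-3p: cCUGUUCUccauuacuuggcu

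The first 4 share the seed, and no other entry of the RefSeq table holds it. Counted from 1 at the 5′ end, miR-26b-5p differs from miR-26a-5p by C11U and C21U and is 21 rather than 22 bases long, so both have the same seed. The rule for assigning reads with mismatches was not given in the sources used here. miR-26a-5p is made from 2 hairpins with one identical sequence. These are MIR26A1 on chromosome 3 at 37969404 to 37969480, plus strand, within CTDSPL, and MIR26A2 on chromosome 12 at 57824609 to 57824692, minus strand, within CTDSP2. MIR26B is found within CTDSP1 on chromosome 2 (218402646 to 218402722, plus strand). In GENCODE 29 each hairpin was intronic in every host transcript that spans it and overlapped no host exon. The 3p arms alone tell the MIR26A hairpins apart, with miR-26a-2-3p differing from miR-26a-1-3p by G11A, C19U, A20U, C21U and G22C.

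The libraries held 98950 miRNA reads for EVEN, 426450 for ODD, 425395 for LacZ and 2987858 for the input. A count of 0 allows up to 30.3 CPM in EVEN, 7.03 in ODD, 7.05 in LacZ and 1.00 in the input (3 counts of the total). Intervals are exact at 95%. Limits and "at least" folds use this floor of 3 counts per library and are not exact bounds. Both cover counting error only.

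The guide strands carried nearly all family reads. miR-26a-5p had 484 reads (4891 CPM, 4466 to 5346) in EVEN, 1180 (2767 CPM, 2612 to 2929) in ODD, 5516 (12967 CPM, 12629 to 13311) in LacZ and 29111 (9743 CPM, 9632 to 9855) in the input. It was the 30th most abundant miRNA in EVEN, the 36th in ODD, the 18th in LacZ and the 28th in the input. miR-26b-5p had 273 reads (2759 CPM, 2442 to 3106) in EVEN, 781 (1831 CPM, 1705 to 1964) in ODD, 5003 (11761 CPM, 11439 to 12089) in LacZ and 50025 (16743 CPM, 16598 to 16889) in the input. Its rank was 41 in EVEN, 43 in ODD, 19 in LacZ and 18 in the input. By library totals both guides were lowest in ODD, next lowest in EVEN and highest in LacZ and the input. Counting intervals did not overlap between libraries for either guide, but the order of EVEN and ODD turned under other scalings, as given below. The 4 members together took 0.765% of EVEN reads, 0.460% of ODD reads, 2.47% of LacZ reads and 2.66% of input reads. miR-1297, which matches the first 15 bases of miR-26b-5p, and miR-4465 had 0 reads in all 4 libraries.

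**Figure D1:**
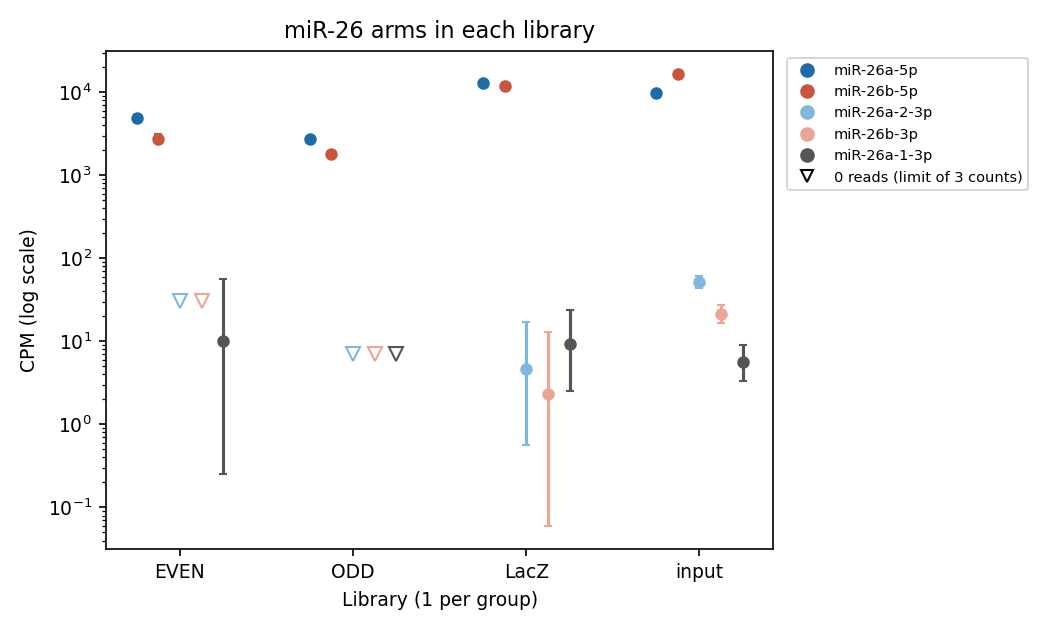
CPM on a log axis for the 5 miR-26 arms in the EVEN, ODD and LacZ pull-downs and the input, 1 library each, with 95% exact binomial intervals; open triangles stand at the limit of 3 counts where a library had 0 reads. Both 5p arms lie between 1831 and 16743 CPM in every library, and no 3p arm exceeds 52.2 CPM.

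The comparison of each probe set with LacZ asks what the HIPK3 probes recovered beyond control probes. By library totals both guides were lower with both probe sets. miR-26a-5p was 2.65-fold lower with EVEN than with LacZ probes (2.42 to 2.92), and miR-26b-5p 4.26-fold lower (3.77 to 4.83). With ODD probes miR-26a-5p was 4.69-fold lower than with LacZ probes (4.40 to 4.99), and miR-26b-5p 6.42-fold lower (5.95 to 6.93). Neither probe set therefore gave a larger share of either guide than the control did.

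By library totals this lower share was common in the pull-downs. A miRNA entered a comparison with 20 or more reads in 1 or both of its libraries, and counted as lower or higher at 2-fold. Of 289 miRNAs tested in EVEN over LacZ, 51.2% were lower and 9.69% higher, and both tested miR-26 members were among the lower. Of 300 tested in ODD over LacZ, 70.3% were lower and 13.0% higher, again with both tested members lower. These counts depend on scaling. With DESeq2 size factors 107 miRNAs were lower and 43 higher in EVEN over LacZ, and 96 lower and 68 higher in ODD over LacZ. The medians were then -0.65 and -0.35. With 5 added to each count instead, 87 were lower and 32 higher in EVEN over LacZ, where EVEN is the shallower library. By library totals the tested miRNAs had a median log2 ratio of -1.06 for EVEN and -1.79 for ODD over LacZ. Relative to that median miR-26a-5p stood at -0.34 with EVEN and -0.43 with ODD probes, and miR-26b-5p at -1.03 and -0.89. In EVEN over LacZ, 107 of the 289 miRNAs had a lower ratio than miR-26a-5p and 70 a lower one than miR-26b-5p. In ODD over LacZ, these counts were 109 and 75 of 300. miR-26a-5p was thus near the middle of the tested miRNAs, and miR-26b-5p near the lower quartile (-2.06 for EVEN and -2.68 for ODD on the log2 scale). The EVEN and ODD values share the LacZ library and are not independent of each other.

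**Figure D2:**
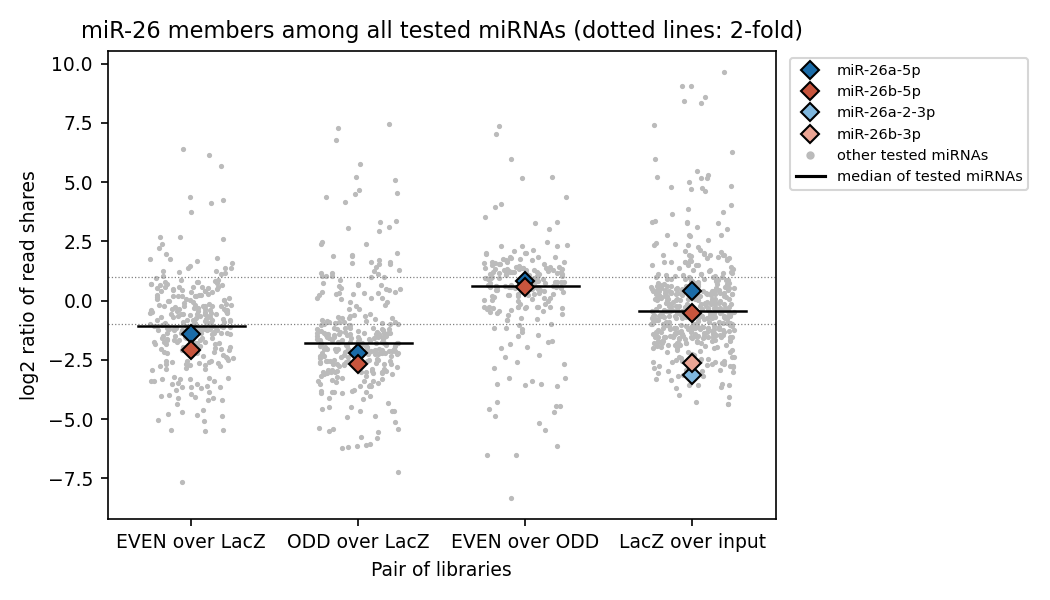
The log2 ratio of read shares (y axis) for each tested miRNA (grey points) in 4 pairs of libraries, with the miR-26 members as diamonds, the median as a bar and dotted lines at 2-fold. The guides lie below the median in EVEN over LacZ and ODD over LacZ, with miR-26b-5p the lower of the pair. In LacZ over input miR-26a-2-3p (2 reads in LacZ) and miR-26b-3p (1 read in LacZ) lie far below both guides. The remaining 3p arm, miR-26a-1-3p, had 4 reads in LacZ and 17 in the input and is not plotted.

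The size of this drop depends on how libraries are scaled. In EVEN over LacZ the log2 ratio of miR-26a-5p was -1.41 by library totals, -1.14 with TMM factors, -0.999 with DESeq2 size factors and -0.98 by totals that leave out the most abundant miRNAs. The last pair of values lies under 2-fold. In ODD over LacZ it was -2.23 by totals, -0.94 with TMM factors, -0.78 with DESeq2 size factors and -1.42 without the most abundant miRNAs, so 2 of these settings end the call. miR-26b-5p stayed past 2-fold lower in both comparisons under all 3 scalings, at -1.66 to -1.82 with EVEN and -1.23 to -1.88 with ODD probes. Neither guide turned higher than LacZ under any of these scalings.

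Between the EVEN and ODD pull-downs, aimed at one exon, neither guide differed by 2-fold. miR-26a-5p was 1.77-fold higher with EVEN than with ODD probes (1.59 to 1.97), and miR-26b-5p 1.51-fold higher (1.31 to 1.73). Past 2-fold, 37.9% of 203 tested miRNAs were higher in EVEN than in ODD and 18.2% lower, and the median log2 ratio was 0.64. Relative to that median miR-26a-5p was at 0.18 and miR-26b-5p at -0.05. The direction turned with TMM factors (log2 -0.20 for miR-26a-5p and -0.43 for miR-26b-5p) and with DESeq2 size factors (-0.22 and -0.45), so no order of the probe sets can be read for either guide.

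**Figure D3:**
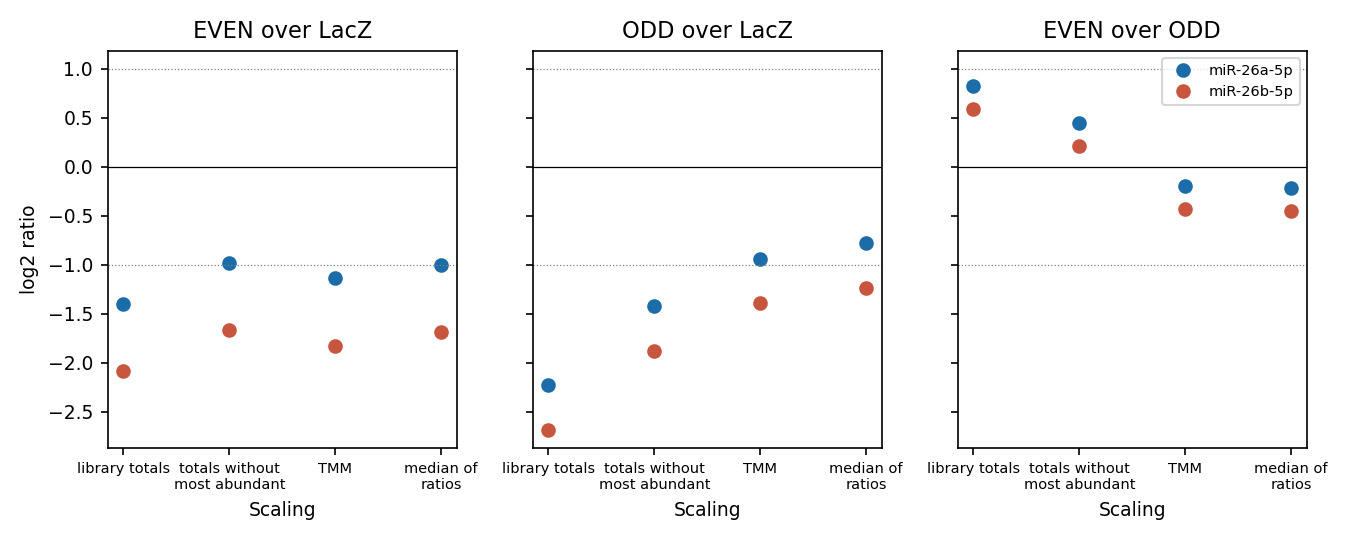
The log2 ratio (y axis) of miR-26a-5p and miR-26b-5p in 3 pairs of libraries under 4 scalings (x axis), with dotted lines at 2-fold. Both guides stay below 0 over LacZ, miR-26a-5p crosses the 2-fold line there, and both change sign in EVEN over ODD, while the gap between the guides is the same under every scaling.

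LacZ over input shows what the beads and control probes retained. miR-26a-5p took a 1.33-fold higher share in LacZ than in the input (1.29 to 1.37), and miR-26b-5p a 1.42-fold lower one (1.38 to 1.47). Neither was past 2-fold, where 18.1% of 475 tested miRNAs were higher and 34.3% lower. miR-26a-5p was above the median of tested miRNAs by 0.85 on the log2 scale, and miR-26b-5p was at -0.07 from it. TMM factors turned miR-26a-5p to a log2 ratio of -0.19 and took miR-26b-5p to -1.11, past 2-fold.

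Over the input, the HIPK3 pull-downs kept the same order of the guides. In EVEN over input miR-26a-5p was 1.99-fold lower (1.82 to 2.18), just under the threshold, and miR-26b-5p 6.07-fold lower (5.39 to 6.86), where 52.2% of 464 tested miRNAs were lower and 18.3% higher. In ODD over input miR-26a-5p was 3.52-fold lower (3.32 to 3.74) and miR-26b-5p 9.14-fold lower (8.52 to 9.82), where 68.6% of 468 were lower and 13.0% higher. Relative to the median log2 ratio of tested miRNAs miR-26a-5p was at 0.07 with EVEN and 0.38 with ODD probes, and miR-26b-5p at -1.53 with EVEN and -0.999 with ODD probes. A miRNA could enter these comparisons through its input reads alone, and the pull-downs were shallower, EVEN most of all. With 5 added to each count 194 were higher and 99 lower in EVEN over input, beside 85 and 242 without. In ODD over input 69 were higher and 222 lower, beside 61 and 321. These shares and medians thus rest partly on low counts. Under other scalings miR-26a-5p ranged between -0.24 and -1.33 in EVEN over input and between -0.65 and -1.13 in ODD over input, and passed 2-fold in each only with TMM factors.

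The ratio of miR-26a-5p to miR-26b-5p within a library does not depend on how libraries are scaled, and it differed between the pull-downs and the input. It does depend on how reads that mismatch at the bases that tell the guides apart were assigned, which is not known here. There were 1.77 miR-26a-5p reads per miR-26b-5p read in EVEN (1.53 to 2.06), 1.51 in ODD (1.38 to 1.66), 1.10 in LacZ (1.06 to 1.15) and 0.582 in the input (0.574 to 0.590). miR-26b-5p was therefore the more abundant guide in the input and miR-26a-5p in all 3 pull-downs. The ratio was 3.05 times that of the input in EVEN (2.62 to 3.55), 2.60 times in ODD (2.37 to 2.85) and 1.89 times in LacZ (1.82 to 1.97). Against LacZ it was 1.61 times as high in EVEN (1.38 to 1.88) and 1.37 times in ODD (1.24 to 1.51). EVEN and ODD did not differ beyond counting error, with 1.17 times the ratio in EVEN (0.983 to 1.40). Most of the distance from the input was thus already present with LacZ probes on the log2 scale (0.92, beside 1.61 for EVEN and 1.38 for ODD over the input).

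**Figure D4:**
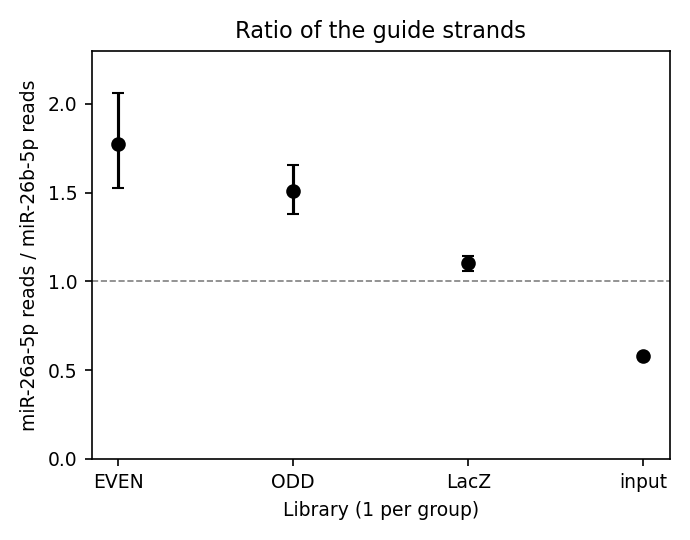
Reads of miR-26a-5p per read of miR-26b-5p (y axis) in each library, with 95% exact intervals and a dashed line at equal reads. The 3 pull-downs lie above the line, at 1.77, 1.51 and 1.10, and the input lies below it at 0.582.

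Many other pairs of miRNAs with one seed shifted by as much or more. This set of pairs was chosen after the values were seen. Among pairs of miRNAs that share bases 2 to 8 and had at least 20 reads in both libraries, the median absolute difference of the log2 ratios was 0.80 in LacZ over input (85 pairs). The miR-26 guides differed there by 0.92, and 37 pairs differed by more. In EVEN over LacZ the median was 1.00 over 55 pairs against 0.68 for miR-26, with 38 pairs above it. In ODD over LacZ it was 0.51 over 66 pairs against 0.45 for miR-26, with 35 pairs above it. Over the input miR-26 lay above the median of pairs with both probe sets. In EVEN over input the median was 1.55 over 55 pairs against 1.61 for miR-26, with 25 pairs above it. In ODD over input it was 1.10 over 66 pairs against 1.38 for miR-26, with 26 pairs above it. Pairs of one family share members, so they are not independent. Members with the let-7 seed formed most of the pairs in each of these comparisons except LacZ over input, where they were the largest group. The medians and counts of pairs thus rest largely on that seed. Outside it, about as many pairs lay above miR-26 as below it in EVEN over LacZ, while most lay above it in ODD over LacZ.

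The 3p arms were rare in every library. miR-26a-2-3p had 0 reads in EVEN, 0 in ODD, 2 in LacZ (4.70 CPM) and 156 in the input (52.2 CPM, 44.3 to 61.1). It was at least 1.72-fold lower in EVEN and at least 7.42-fold lower in ODD than in the input, by the floor of 3 counts, and 11.1-fold lower in LacZ (3.02 to 92.5). The exact 95% bounds, which include the counting error of the input, were 1.38-fold for EVEN and 5.96-fold for ODD. miR-26b-3p had 0 reads in EVEN, 0 in ODD, 1 in LacZ and 64 in the input (21.4 CPM, 16.5 to 27.4). It was at least 3.04-fold lower in ODD by the same floor (exact bound 2.41-fold) and 9.11-fold lower in LacZ (1.58 to 365) than in the input, and in EVEN its input level lies under what a count of 0 allows. The remaining 3p arm of the family, miR-26a-1-3p, had 1 read in EVEN, 0 in ODD, 4 in LacZ and 17 in the input. None of the 3 arms had 20 reads in any pull-down, so none was tested over LacZ. Over the input, miR-26a-2-3p and miR-26b-3p were tested only through their input reads, and miR-26a-1-3p was not tested.

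Set against their own guide, the 3p arms show whether passenger and guide strands moved together. Against 5516 miR-26a-5p reads in LacZ, the input ratio of miR-26a-2-3p to miR-26a-5p would give 29.6 reads where 2 were counted. That ratio was 14.8-fold lower than in the input (4.02 to 123). In ODD the input ratio would give 6.32 reads, and 0 were counted. In EVEN it would give 2.59 reads against 0, which does not resolve a difference. The miR-26a-5p reads come from both MIR26A hairpins, so they are not the guide of MIR26A2 alone. For both MIR26A 3p arms together, the input ratio would give 32.8 reads in LacZ where 6 were counted. The combined ratio was 5.46-fold lower than in the input (2.46 to 15.1). For miR-26b-3p the input ratio would give 6.40 reads in LacZ against 1 counted, a 6.40-fold lower ratio (1.11 to 257), and 0.999 in ODD and 0.349 in EVEN against 0 in each. miR-26a-1-3p had 4 reads in LacZ where the input ratio would give 3.22. The MIR26A passengers thus changed order, with 2 reads of miR-26a-2-3p to 4 of miR-26a-1-3p in LacZ and 156 to 17 in the input, an 18.4-fold lower ratio in LacZ (2.35 to 210). This rests on 6 reads in LacZ. These ratios do not depend on library scaling.

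The arm choice itself was strongly towards 5p. miR-26b-3p made up 0.0200% of the reads of its hairpin in LacZ and 0.128% in the input (0.0984 to 0.163). Over all hairpins with rows for both arms and at least 20 reads, the rarer arm took a median of 2.21% in LacZ (179 hairpins) and 4.19% in the input (266 hairpins). In the input 42 of these hairpins had a smaller share of the rarer arm than miR-26b.

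The miRNAs whose profile over the 4 libraries was nearest to that of each guide differed between the guides. Likeness was the Euclidean distance between log2 shares, each centred on its own mean, over 134 miRNAs with at least 20 reads in every library. Nearest to miR-26a-5p was miR-362-5p (distance 0.19), with 566, 284, 1321 and 1144 CPM in EVEN, ODD, LacZ and the input, followed by miR-769-5p (0.25) and miR-125b-5p (0.36). Nearest to miR-26b-5p was miR-9-5p (0.28), with 2112, 1374, 8063 and 10059 CPM in the same libraries, followed by miR-450b-5p (0.33) and miR-27b-3p (0.42). The guides were 1.23 apart, where the median distance was 1.82 from miR-26a-5p and 2.41 from miR-26b-5p. miR-26b-5p was the 34th nearest to miR-26a-5p, and miR-26a-5p the 38th nearest to miR-26b-5p. With 4 libraries such nearness is a description of these profiles.

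**Figure D5:**
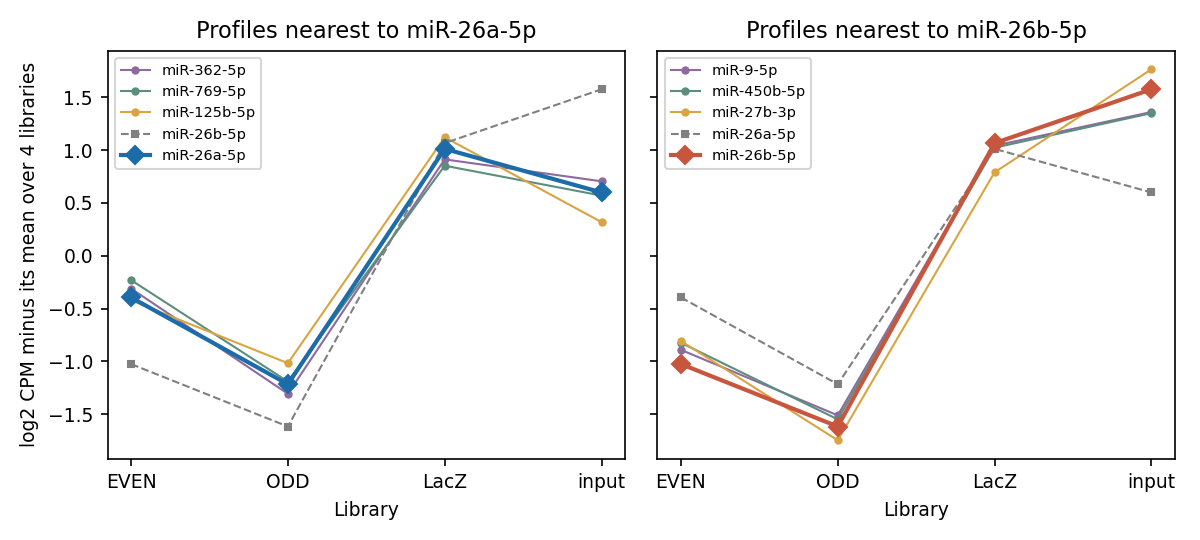
The log2 CPM of each miRNA minus its own mean over the 4 libraries (y axis) by library (x axis), for each guide, its 3 nearest miRNAs and, dashed, the other guide. By library totals miR-26a-5p and its neighbours are higher in LacZ than in the input, while miR-26b-5p and its neighbours are lower in LacZ than in the input.

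Other miRNAs reported to repress EZH2 were set beside miR-26. Of 6 listed, miR-101-3p, miR-138-5p, miR-214-3p and miR-98-5p were tested, and miR-217-5p and miR-124-3p had 0 reads in the pull-downs. All 4 were lower with EVEN than with LacZ probes, with a median log2 ratio of -1.998 beside -1.06 for all tested miRNAs, of which 51.2% were lower. With TMM factors 3 stayed past 2-fold, where 118 of all 289 tested miRNAs were lower. With DESeq2 size factors 2 stayed, where 107 of the 289 were lower, and without the most abundant miRNAs 2 stayed, where 106 were lower. With ODD probes 2 were lower and 1 higher than with LacZ probes (2 higher, miR-98-5p being added, under each other scaling), with a median of -1.47 beside -1.79 for all tested miRNAs, of which 70.3% were lower and 13.0% higher. Of all 300 tested, 66 were higher and 103 lower with TMM factors, and 68 and 96 with DESeq2 size factors. Without the most abundant miRNAs 58 were higher and 149 lower. miR-101-3p, the most abundant of the list in EVEN, LacZ and the input but not in ODD, which represses EZH2 in several tumours, had 134 reads in EVEN, 327 in ODD, 3559 in LacZ and 63788 in the input. Relative to LacZ it fell 6.18-fold in EVEN (5.20 to 7.40) and 10.9-fold in ODD (9.74 to 12.3). miR-138-5p had the largest ratio with EVEN probes, at 1 read against 116 in LacZ, 26.98-fold lower (4.75 to 1075). In ODD it had 12 reads and was 9.69-fold lower than in LacZ (5.34 to 19.3). miR-214-3p, which represses EZH2 in muscle differentiation, had 3987 reads in ODD against 473 in LacZ and was 8.41-fold higher (7.64 to 9.27), but had 42 reads in EVEN and was 2.62-fold lower there (1.91 to 3.68). By library totals the miR-26 guides, miR-101-3p and miR-138-5p were thus lower in both pull-downs, whereas miR-214-3p was lower in EVEN and higher in ODD. The EVEN call of miR-214-3p was lost with DESeq2 size factors and without the most abundant miRNAs.

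The miRNAs of muscle differentiation gave a mixed picture. Of 7 listed, 5 were tested over LacZ, with 2 higher (4 with DESeq2 size factors and without the most abundant miRNAs) and 1 lower in EVEN (median log2 ratio 0.69) and 0 higher and 3 lower in ODD (median -1.78). Over all tested miRNAs 9.69% were higher and 51.2% lower in EVEN (median -1.06), and 13.0% higher and 70.3% lower in ODD (median -1.79), so the list in ODD was close to the whole table. In EVEN 43 of all 289 tested miRNAs were higher with DESeq2 size factors and 44 without the most abundant miRNAs. The 3 lower calls in ODD were lost under both TMM and DESeq2 scaling, where 103 and 96 of all 300 were lower. miR-206, the most abundant and specific to skeletal muscle, had 95311 CPM in EVEN, 32745 in ODD, 59009 in LacZ and 42097 in the input. Its log2 ratio was 0.69 in EVEN over LacZ and -0.85 in ODD over LacZ, and the ODD value turned to 0.44 with TMM factors and 0.60 with DESeq2 size factors. miR-1-3p, which promotes muscle differentiation, was 2.96-fold lower with EVEN probes (2.52 to 3.50) than with LacZ probes. miR-133b had the largest ratio with ODD probes, 4.40-fold lower (2.38 to 8.75) with 13 reads against 57 in LacZ. In EVEN it had 36 reads and was 2.72-fold higher than in LacZ (1.74 to 4.19), a call kept under all 3 other scalings.

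The letters of HIPK3 exon 2 were searched for matches to the miR-26 seed. The exon lies on chromosome 11 at 33286413 to 33287511 of GRCh38, plus strand, is 1099 nt long and is almost wholly coding in GENCODE 29. TACTTGA, the complement of seed bases 2 to 8, had 0 matches on the plus strand, the joined ends of the circle included, and 305 (5.39%) of 5655 annotated exons of protein-coding genes of 1000 to 1200 nt hold it. ACTTGA, the complement of bases 2 to 7, also had 0 matches, where 24.7% of these exons hold it. TACTTG, the complement of bases 3 to 8, which was added after those results and overlaps both, had 1 match at chr11:33287224-33287229, where 20.3% of these exons hold it. It is shown with its surroundings, 5′ to 3′ on the plus strand, capitals marking the match.
HIPK3 exon 2: gcaccgtaaccaTACTTGtttagt
The exons compared were taken by length, with coding and untranslated sequence not told apart. A match or its lack is a description of letters and says nothing of binding.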

How the data were processed

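Small RNA from RD lysate was measured in 4 libraries, grouped by their titles (EVEN, ODD, LacZ, input). Per the labels' protocols, RNA was taken from lysate or pull-down with phenol and chloroform, and libraries came from the QIAseq miRNA kit. The deposited count table holds raw reads for each mature miRNA. The deposited CPM table is the same counts over library totals, to within 1.46e-11 CPM. The submitters' processing notes name GRCh38; the sources used here do not give trimming, aligner, annotation, or the handling of multi-mapping reads and molecular identifiers. Uncollapsed amplified copies would make counting intervals too narrow.

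From the counts, log2 ratios of (count + 0.5) over the library total were computed, with at least 20 reads in 1 of 2 libraries and a 2-fold threshold. Folds are ratios of shares without the 0.5, with exact conditional Clopper-Pearson 95% intervals; ratios between miRNAs have exact conditional odds-ratio intervals, and shares exact Clopper-Pearson intervals. With 1 library per group no test was run. Shares carry no absolute amounts. Named miRNAs were the members and miR-26a-1-3p, miRNAs with the same seed, the 3 nearest profiles to each guide, and the most abundant and most changed miRNA of the EZH2 and muscle lists. Members and lists were chosen with earlier results of these data known. Scaling alternatives were DESeq2 size factors (version 1.42.0, medians of ratios), TMM from edgeR 4.0.16, and totals without the most abundant miRNAs. The last left out the 10 most abundant miRNAs of each library, 20 in all. The others were 5 added to each count, deposited CPM with 1 added, minimums of 1 and 100 reads, and a 4-fold threshold. The log2 ratios and fold intervals were checked on a simulated pair of libraries, drawn from the LacZ profile with counting noise only. The other steps were not simulated. Tools were Python 3.11.15, pandas 2.3.3, numpy 2.4.6, scipy 1.17.1, matplotlib 3.10.9 and R 4.3.3.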

Additional observations from a re-analysis of the deposited data

How the results depend on the processing

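The log2 ratio of the summed family share moved beyond its counting interval under each scaling. For EVEN over LacZ it was -1.69 by library totals, -1.43 with TMM factors, -1.29 with DESeq2 size factors and -1.26 without the most abundant miRNAs. In the same order of settings it was -2.43, -1.14, -0.98 and -1.62 for ODD over LacZ, and 0.73, -0.29, -0.31 and 0.36 for EVEN over ODD. It was -1.79, -2.13, -1.67 and -1.04 for EVEN over input, -2.53, -1.84, -1.36 and -1.40 for ODD over input, and -0.10, -0.70, -0.38 and 0.22 for LacZ over input. Scaling shifts every miRNA of a comparison alike, so the distances to the median are unaffected. With 5 added to each count or 1 added to the deposited CPM all 12 family values stayed within their intervals, and the 6 ratios of miR-26a-5p to miR-26b-5p did so with 5 added. Among single members, miR-26b-3p in EVEN over input turned from -2.09 to 1.13 with 5 added, by construction, since it had 0 reads in the shallower library; 37 of the other member values moved and 52 did not.

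Counts of miRNAs past the threshold over the whole table ranged widely over the alternatives. In EVEN over LacZ 28 were higher (12 to 149) and 148 lower (76 to 248), and in ODD over LacZ 39 (20 to 155) and 211 (96 to 517). In EVEN over ODD 77 were higher (19 to 260) and 37 lower (25 to 83). In EVEN over input the counts were 85 (43 to 677) and 242 (99 to 282), in ODD over input 61 (41 to 412) and 321 (218 to 428), and in LacZ over input 86 (45 to 478) and 163 (55 to 246). The share of higher among all calls in ODD over LacZ was 15.6% by totals and 41.5% with DESeq2 size factors, and in EVEN over ODD 67.5% and 22.9%. Depth limits the 3p arms, above all in EVEN. No paired analysis was possible because each group has 1 library.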
